A study of Rattus norvegicus with 8 samples.

Results

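Col10a1 encodes the single chain of collagen X, the short network-forming collagen of hypertrophic cartilage. Of 31042 probe sets analysed on an Affymetrix rat array, 1 was assigned to Col10a1 alone by the platform annotation, and it stands for 1 of the 14217 genes measured. Every value of the gene rests on that probe set. It was followed across 4 zones of the femur growth plate of Rattus norvegicus at 2 ages. The groups were the reserve zone of resting chondrocytes, the proliferative zone of dividing ones, the hypertrophic zone of enlarging ones and the perichondral zone bordering the cartilage. Each zone gave 1 array from rats aged 42 days and 1 from rats aged 46 days, and each array received RNA pooled from 3 rats. No treatment or allele is named in the labels. The sources used here do not give strain, sex, the method of dissection or whether pools of several zones share animals. Following the design text, the 2 ages of a zone are its replicates (n = 2), so the spread behind each p-value includes age.

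Chondrocytes of the growth plate pass from rest through division to hypertrophy, when they swell, switch from collagen II towards collagen X and direct mineralisation and vessel entry. Collagen X trimers join into a hexagonal pericellular lattice. Col10a1 is driven by Runx2, Runx3 and Mef2 factors, and Indian hedgehog (Ihh) and parathyroid hormone-related protein (Pthlh) set the pace at which cells reach that stage. The gene is therefore the usual marker of the hypertrophic zone. The RefSeq table gives the 250 bases before its start site, shown because it is the proximal promoter of the gene described, beside the same stretch of Mmp13, the collagenase of the same stage whose zone pattern is set against that of Col10a1 further on. The build is GRCr8, both genes are on the plus strand, and the stretches are chr20:39737286-39737535 and chr8:12782579-12782828. Capitals mark the motifs found.
Col10a1: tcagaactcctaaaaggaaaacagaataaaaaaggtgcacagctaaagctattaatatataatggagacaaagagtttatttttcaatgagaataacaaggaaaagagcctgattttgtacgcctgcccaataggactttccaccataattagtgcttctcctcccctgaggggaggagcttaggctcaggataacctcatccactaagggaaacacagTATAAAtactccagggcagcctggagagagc
Mmp13: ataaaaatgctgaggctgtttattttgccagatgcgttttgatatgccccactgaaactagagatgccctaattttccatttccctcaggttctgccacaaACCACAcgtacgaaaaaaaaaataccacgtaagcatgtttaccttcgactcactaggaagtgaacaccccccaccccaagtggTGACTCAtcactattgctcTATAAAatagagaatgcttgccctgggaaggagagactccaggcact

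Both strands of these stretches were searched for a TATA box (TATAAA), a RUNX motif (TGTGGT), an AP-1 motif (TGANTCA) and a GC box (GGGCGG), and no matches overlapped. The Col10a1 stretch held the TATA box, whose first base lies at position -31 from the start site, and none of the other 3 motifs. The Mmp13 stretch held a TATA box at position -47, an AP-1 motif at position -66 and a RUNX motif on the minus strand (ACCACA as printed) at position -149. Among 33469 promoter stretches of this length, 12.9% held the TATA box, 14.5% the RUNX motif, 6.34% the AP-1 motif and 30.5% the GC box. The matches are a description of letters, not of binding.

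The labelled tissue was checked against chondrocyte markers. Of 7 such genes with a probe set, 4 lay in all 8 arrays above 9.70 on the log2 scale used here, which is the 0.95 quantile of 33 genes typical of other organs and is called the other-organ level. Col2a1, the main collagen of cartilage, ran from 15.86 to 17.80. The lowest of the 7 was Col11a2, a chain of collagen XI, which reached down to 8.46 in the 46-day hypertrophic array. The ratio of the 3' to the 5' Gapdh control signal, a sign of RNA integrity, was 8.15 and 3.96 in reserve, 7.10 and 5.39 in proliferative, 4.30 and 3.63 in hypertrophic and 4.47 and 3.78 in perichondral arrays at 42 and 46 days, and the median deposited intensity from 226.7 to 349.

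Col10a1 was brightest in the hypertrophic zone, next in the perichondral zone and dimmest in the proliferative and reserve zones. The deposited linear intensity was 169191 in the 42-day and 27994 in the 46-day hypertrophic array. In perichondral arrays it was 17011 at 42 days and 14454 at 46 days. In proliferative arrays it was 6904 and 1708, and in reserve arrays 4209 and 1867, at 42 and 46 days. Both hypertrophic arrays therefore lay above both perichondral arrays, and both perichondral arrays above all 4 proliferative and reserve arrays, while the proliferative and reserve arrays overlapped.

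On the scale used for testing, log2(intensity + 16) after quantile normalization between arrays, the means were 16.10 ± 1.18 (SD, n = 2) in hypertrophic, 13.72 ± 0.08 in perichondral, 11.78 ± 1.19 in proliferative and 11.33 ± 0.63 in reserve arrays. The lowest single array was the 46-day reserve array at 10.88, above the other-organ level of 9.70, so the gene gave signal in every zone. Quantile normalization drew in the brightest value, which was 17.37 before and 16.93 after it in the 42-day hypertrophic array. The spread between the 2 arrays was narrow in the perichondral zone and over 1 log2 unit in the proliferative and hypertrophic zones. In dissected tissue, fewer cells of a type and less RNA per cell cannot be told apart.

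**Figure D1:**
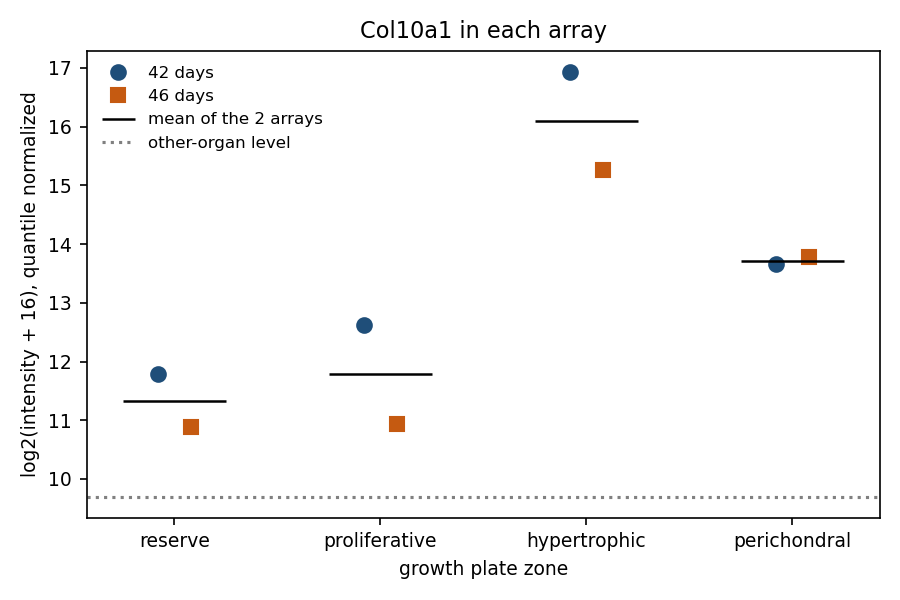
Col10a1 on the log2(intensity + 16) scale after quantile normalization (vertical axis) in the 8 arrays, by zone (horizontal axis); circles are 42-day and squares 46-day arrays, bars the mean of the 2 arrays, and the dotted line the other-organ level of 9.70. The hypertrophic arrays at 16.93 and 15.26 stand above the perichondral arrays at 13.66 and 13.78, and these above the other 4 arrays.

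The hypertrophic zone was compared with each other zone to ask how far Col10a1 marks it. Col10a1 was higher in hypertrophic than in reserve arrays by 4.77 on the log2 scale (SE 0.72, 95% interval 3.26 to 6.28), a 27.2-fold difference (adjusted p = 0.0233 with limma over all probe sets). It was the only probe set called higher in that comparison. Limma called 1 of 31042 higher (0.00322%) and 6 lower (0.0193%), or 0.0226% in either direction. The difference was 5.15 at 42 days and 4.38 at 46 days. The call did not hold in most alternatives. It was lost as deposited (adjusted p = 0.0984), with median-centred arrays (0.211), with dim probe sets left out (0.067), without a variance trend (0.529), with only the 4 arrays of these zones (0.452) and with the Gapdh ratio as a covariate (0.125). It was also lost without either reserve array (0.444 and 0.246), either proliferative array (0.0501 and 0.075) or either perichondral array (0.136 and 0.152), in each case the 42-day array first. It held with pseudocounts of 1 (0.0379) and 64 (0.0275), without either hypertrophic array (0.0344 and 0.0252) and with age as a replicate block (0.000203). The difference itself stayed between 3.90 and 5.63 in all of these fits.

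Between hypertrophic and proliferative arrays Col10a1 differed by 4.32 (SE 0.72, 95% interval 2.81 to 5.83), which missed the threshold (adjusted p = 0.0766 with limma). Apart from leaving an array out, it passed in 1 of 9 alternative settings, age as a replicate block (adjusted p = 0.00121 with limma). It missed, among others, as deposited (0.315), with median-centred arrays (0.726), without a variance trend (0.716) and in the fit to these 2 zones (0.996). With an array left out the difference ran from 3.45 to 5.17. Hypertrophic exceeded proliferative arrays by 4.31 at 42 days and 4.33 at 46 days. In that comparison limma called 3 probe sets higher (0.00966%) and 1 lower (0.00322%), or 0.0129% in either direction. Over zones as a whole, limma's F test called 12 probe sets (0.0387%), of which Col10a1 ranked as number 11 by p (F = 18.48, adjusted p = 0.0412).

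Perichondral arrays held Col10a1 at intermediate values. The gap between hypertrophic and perichondral arrays was 2.38 (SE 0.72, 95% interval 0.87 to 3.89, adjusted p = 0.643 with limma). It was 3.27 at 42 days and 1.49 at 46 days, and without the 42-day hypertrophic array it was 1.52. Perichondral arrays lay above reserve arrays by 2.39 (95% interval 0.88 to 3.90, adjusted p = 1) and above proliferative arrays by 1.94 (95% interval 0.43 to 3.45, adjusted p = 0.963). Without the 46-day proliferative array the difference from proliferative arrays was 1.11. None of these 3 differences passed the threshold over all probe sets, although the arrays did not overlap. Both arrays of the first zone lay above both of the second for 18.2% (hypertrophic over perichondral), 18.6% (perichondral over reserve) and 16.3% (perichondral over proliferative) of all probe sets, so the lack of overlap alone sets no gene apart. Between hypertrophic and perichondral arrays limma called 9 probe sets, all lower (0.029%). Between perichondral and reserve arrays it called 0, with 1164 at an unadjusted p under 0.05, and between perichondral and proliferative arrays 0, with 1551.

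Proliferative and reserve arrays, the neighbours at the low end, did not differ in Col10a1 beyond their spread. The difference was 0.45 (SE 0.72, 95% interval -1.06 to 1.96, adjusted p = 0.91 with limma), which leaves room for a gap of either sign. It was 0.85 at 42 days and 0.05 at 46 days, and it turned to -0.39 without the 42-day proliferative array. Limma called 7 probe sets in that comparison, all lower (0.0226%). As deposited, the 46-day proliferative array was at 0.915 of the 46-day reserve array.

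**Figure D2:**
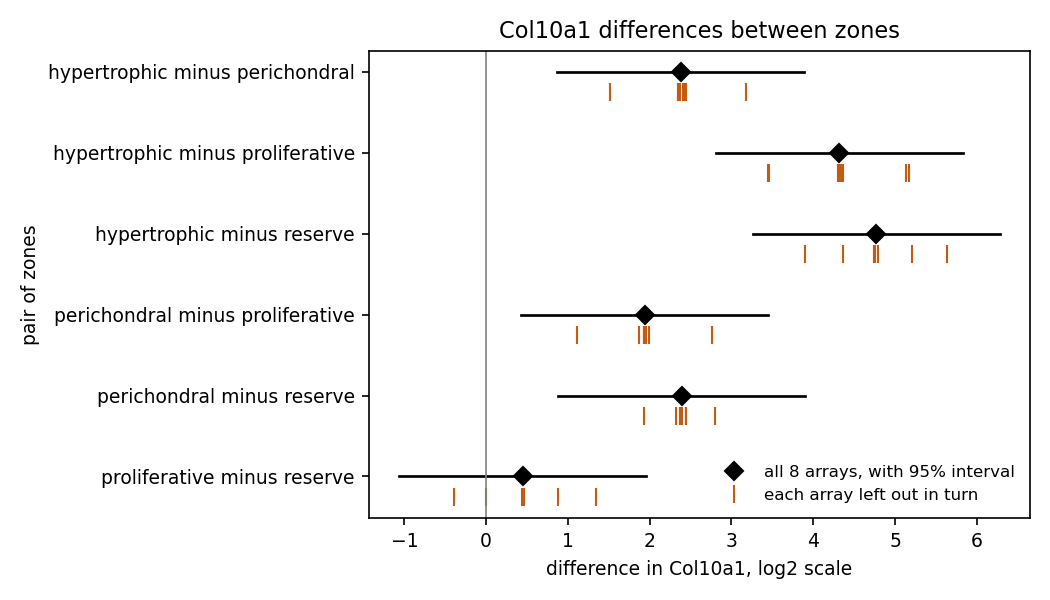
Difference in Col10a1 (horizontal axis, log2 scale) for each of the 6 pairs of zones (vertical axis); diamonds with lines are the estimate from all 8 arrays and its 95% interval, and short ticks are the estimates with each array left out in turn. The intervals of the 3 hypertrophic and 2 perichondral pairs lie above 0, while that of proliferative minus reserve spans it.

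The order of zones shown by Col10a1, with hypertrophic above perichondral and perichondral above the other 4 arrays without overlap, was found in 97 of 31042 probe sets (0.312%). With a hypertrophic minus reserve difference of at least 2 it was found in 30 (0.0966%). Among the 12 genes with a single symbol in that last group Col10a1 had the largest hypertrophic minus reserve difference. The next were Golt1a at 3.15, Myrfl at 2.99, Fer1l5 at 2.93 and Ace, the angiotensin-converting enzyme, at 2.88. These genes are named for their order of zones, chosen after their values were seen.

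The ages were compared because the pools of each zone differ in age by design. Col10a1 was lower at 46 than at 42 days by an average of 1.03 on the log2 scale with zone as a covariate (SE 0.37, 95% interval -1.81 to -0.25), which missed the threshold (adjusted p = 0.486 with limma). The average was -1.50 as deposited (adjusted p = 0.196) and -1.74 with median-centred arrays (0.0603). Limma called 0 of 31042 probe sets for age, with 2616 at an unadjusted p under 0.05. The 46-day array was at 16.5% of the 42-day intensity in the hypertrophic zone, at 24.7% in the proliferative zone, at 44.4% in the reserve zone and at 85% in the perichondral zone. After quantile normalization the differences were -1.67, -1.69, -0.89 and 0.12 in the same order. The sign in the perichondral zone depended on the scaling, at -0.23 as deposited and -0.42 with median-centred arrays. At least 3 zones lay lower at 46 days for 31.9% of all probe sets.

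Markers of other cell types also moved between the 2 hypertrophic arrays. The summed deposited intensity of 10 osteoblast and bone genes was 282594 at 42 days and 13859 at 46 days, that of 14 leukocyte and marrow genes 24599 and 2247, and that of 16 fibrous genes 252266 and 16572. The bone and fibrous lists both hold Col1a1 and Col1a2, the bright chains of type I collagen, and the median gene differed less than the sums, at 10.26 and 9.11 on the log2 scale for bone, 9.82 and 6.40 for leukocyte and 9.78 and 9.01 for fibrous genes. The 7 osteoclast genes summed to 5313 and 5699, and the 10 endothelial genes to 4100 and 3797. In reserve arrays, where Col10a1 was lowest, the bone sum was 166652 and 150101 and the leukocyte sum 52856 and 43681. In perichondral arrays the bone sum was 119096 and 48976, and in proliferative arrays 9313 and 6383. Limma called 0 of the 10 bone genes in any pair of zones (at most 0.029% of all probe sets). At an unadjusted p under 0.05 lay 4 of them between hypertrophic and proliferative arrays (5.52% of all probe sets) and 6 between proliferative and reserve arrays (7.64%). Col1a1, the main chain of type I collagen, was at 16.09 and 11.33 in hypertrophic arrays and Ibsp, a sialoprotein of mineralised matrix, at 15.66 and 12.47. Their part in the values of Col10a1 was not tested.

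The summed intensities of erythroid, leukocyte and osteoclast genes were highest in reserve arrays, though not every gene was. The 7 osteoclast genes summed to 21928 and 9138 there, and 0 of 7 had a hypertrophic, perichondral or proliferative difference from reserve above 0. Of the 8 erythroid genes 1, 2 and 2 had such a difference above 0, Epor and Slc4a1 among them at 1.56 and 0.80 for proliferative minus reserve, and of the 14 leukocyte genes 2, 1 and 1. Epor and Slc4a1 were singled out after their values were seen. Limma called 0 of 8 erythroid genes in any pair of zones, where it called at most 0.029% of all probe sets. The 8 erythroid genes summed to between 30575 and 48427 there, against 3412 to 15945 in hypertrophic, 3834 to 10269 in perichondral and 2536 to 4528 in proliferative arrays. S100a9, a neutrophil protein and the leading leukocyte gene, was lower in proliferative than in reserve arrays, at a difference of -7.55 (adjusted p = 0.000438 with limma). None of the 63 measured markers of other cell types was at 0 in any array, the lowest intensity being 7.83, and in proliferative arrays 13 of 14 leukocyte, 7 of 7 osteoclast and 6 of 8 erythroid genes stayed below the other-organ level. Ogn, a proteoglycan of fibrous tissue and bone, had 4 probe sets. They averaged 8.41, 9.06, 8.96 and 7.44 in hypertrophic and 12.92, 9.65, 11.92 and 10.74 in perichondral arrays. On the first of these, the one used, Ogn was the 1 fibrous gene of 16 called between hypertrophic and perichondral arrays (0.029% of all probe sets). It was lower in hypertrophic arrays at a difference of -4.50 (adjusted p = 0.0484 with limma), the largest of its probe sets. That call held in 3 of 8 fits with an array left out (adjusted p from 0.0265 to 0.999).

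Of 25 listed hypertrophic chondrocyte genes 21 were measured. None of the 21 had the order of zones of Col10a1, as few probe sets did (0.312%). Between hypertrophic and reserve arrays limma called 0 of them (0.0226% of all probe sets), with 1 at an unadjusted p under 0.05, where 2515 of all probe sets lay (8.1%). Both counts are near those shares. Their median difference there was -0.38, against 0.06 over all probe sets, with 7 of 21 above 0. In both arrays 3 of them lay above and 1 below the reserve arrays, where 21.3% and 17.7% of all probe sets did so. Between perichondral and reserve arrays the median was -0.77, with 3 of 21 above 0, and 10 of the 21 lay wholly below reserve arrays, as did 16.1% of all probe sets. Across the 8 arrays the correlation of these genes with Col10a1 ran from -0.57 to 0.77 with a median of 0.11, against -0.01 over all 14217 genes. These correlations share arrays, zones and scaling, and no p is given.

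Mmp13, the collagenase of late hypertrophic chondrocytes and osteoblasts, separated from Col10a1 in the reserve and perichondral zones. It was at 14.73 and 14.09 in hypertrophic, 14.75 and 14.73 in reserve, 12.08 and 9.77 in perichondral and 8.65 and 8.57 in proliferative arrays. Its hypertrophic minus reserve difference was -0.33 (95% interval -1.74 to 1.07), where that of Col10a1 was 4.77 (3.26 to 6.28). Between perichondral and reserve arrays Mmp13 differed by -3.81 (95% interval -5.22 to -2.41, adjusted p = 0.276 with limma) and Col10a1 by 2.39 (0.88 to 3.90). In both comparisons the intervals of the 2 genes do not overlap. The difference between the genes was not itself tested.

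Mmp13 and Mmp9, the gelatinase of osteoclasts and of cells at the cartilage front, were the 2 of 21 stage genes that limma called between hypertrophic and proliferative arrays, where 0.00966% of all probe sets were called higher. Mmp13 was higher in hypertrophic arrays by 5.80 (SE 0.66, adjusted p = 0.00411) and Mmp9 by 6.55 (SE 0.93, adjusted p = 0.025). Both were lower in proliferative than in reserve arrays, Mmp13 at a difference of -6.13 (adjusted p = 0.000948 with limma) and Mmp9 at -7.11 (adjusted p = 0.00655). Apart from leaving an array out, each of these 2 calls held in 7 of 8 alternative settings and was lost in limma without a variance trend (adjusted p = 0.505). With an array left out the differences ran from -6.24 to -6.02 for Mmp13 and from -7.70 to -6.41 for Mmp9. Both calls were lost in some of those fits, that of Mmp9 in more of them. Mmp9 was at 13.30 and 12.09 in reserve, 11.79 and 12.48 in hypertrophic, 9.04 and 5.36 in perichondral and 5.48 and 5.70 in proliferative arrays. The calls depended on the arrays used: between hypertrophic and proliferative zones Mmp13 kept its call in 6 of 8 fits with an array left out (lost without either proliferative array, at 0.145 and 0.115) and Mmp9 in 2 of 8 (kept without either perichondral array). In 1 of 8 alternative settings, age as a replicate block, the perichondral minus reserve differences of Mmp13 (adjusted p = 0.0233 with limma) and Mmp9 (0.0379) passed as well. Under that block the difference of Col10a1 did not pass (0.531). The perichondral minus reserve difference of Mmp9 was -5.50 on the probe set used and -3.08 on its other, dimmer one. The differences in the called pairs were smaller on the dimmer one too. It averaged 8.53 in reserve, 7.14 in hypertrophic and 5.39 in proliferative arrays, all below the other-organ level. The probe set used averaged 12.70, 12.14 and 5.59 in the same zones.

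Proteins of mineralising matrix were also measured. Ibsp was at 14.52 and 14.33 in reserve, 15.66 and 12.47 in hypertrophic, 12.60 and 13.42 in perichondral and 10.42 and 6.05 in proliferative arrays. Its proliferative minus reserve difference of -6.19 missed the threshold (adjusted p = 0.0606 with limma). Apart from leaving an array out, it passed in 2 of 8 alternative settings, the age block (0.00191) and a pseudocount of 64 (0.0392). Dmp1, an acidic phosphoprotein of mineralised matrix, averaged 12.88 in reserve, 11.78 in hypertrophic and 9.01 in perichondral arrays. Its hypertrophic arrays, at 13.58 and 9.98, overlapped its perichondral arrays, at 7.80 and 10.22. Spp1, osteopontin, ran from 8.47 to 9.81 and Alpl, the phosphatase that frees phosphate for mineral, from 8.61 to 9.77 over all 8 arrays, around the other-organ level, so little can be read from their zone values. Panx3, a channel protein of prehypertrophic chondrocytes and osteoblasts, averaged 10.63 in proliferative, 10.28 in hypertrophic, 9.50 in reserve and 8.83 in perichondral arrays.

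**Figure D3:**
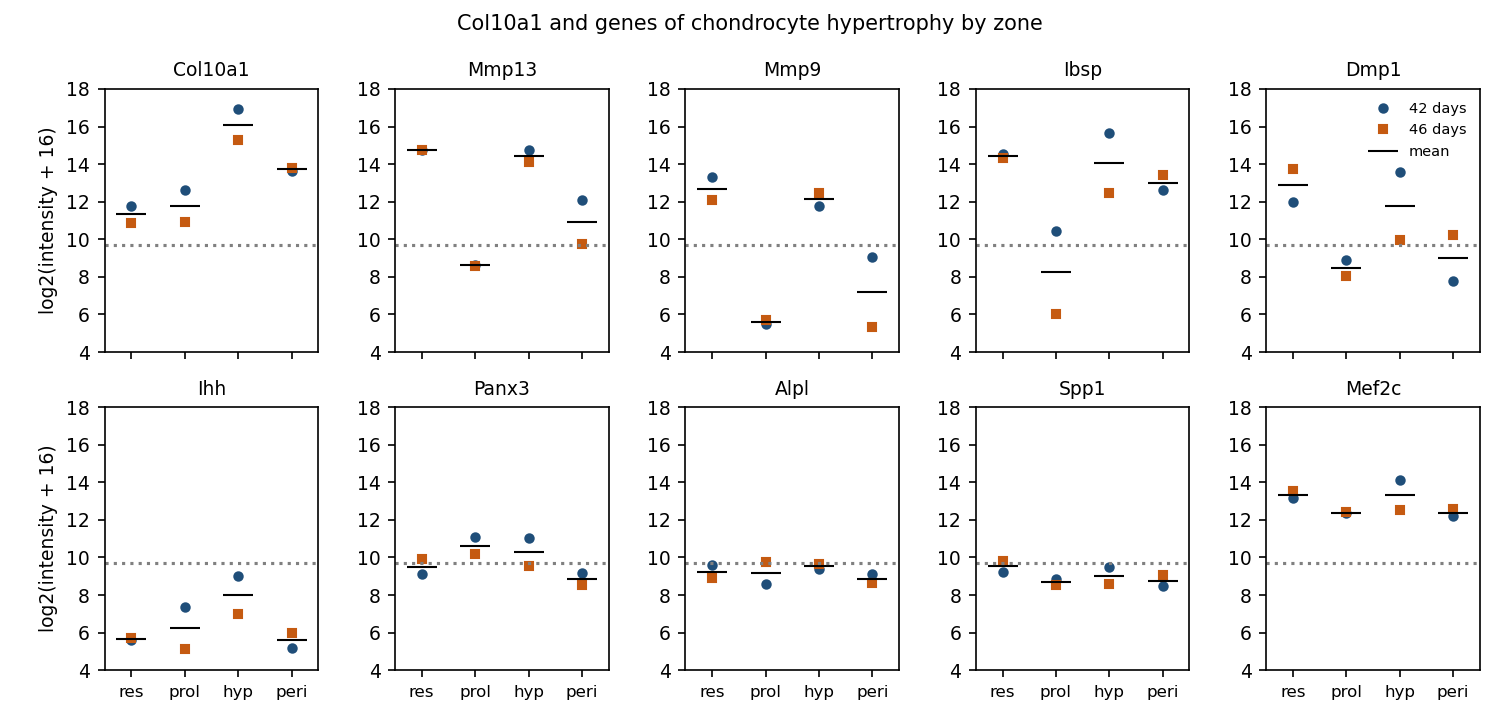
Col10a1 and 9 genes of chondrocyte hypertrophy on the log2(intensity + 16) scale (vertical axes) in reserve (res), proliferative (prol), hypertrophic (hyp) and perichondral (peri) arrays; circles are 42-day and squares 46-day arrays, dashes the zone mean, and the dotted line the other-organ level of 9.70. Mmp13, Mmp9 and Ibsp are bright in reserve and hypertrophic arrays, where Col10a1 averages 11.33 and 16.10. Ibsp is also bright in perichondral arrays, at 12.60 and 13.42.

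Ihh, the secreted signal of cells entering hypertrophy, had the highest correlation with Col10a1 of the genes in the 6 lists on the collagen and its control (r = 0.77 over 8 arrays). It was dim, at 9.03 and 6.98 in hypertrophic, 7.34 and 5.14 in proliferative, 5.62 and 5.72 in reserve and 5.18 and 5.99 in perichondral arrays, all below the other-organ level. Its hypertrophic minus reserve difference was 2.34 (95% interval -0.12 to 4.79, adjusted p = 0.635 with limma). Pth1r, the receptor for Pthlh, averaged 9.29 in hypertrophic, 9.08 in reserve, 9.53 in proliferative and 9.04 in perichondral arrays. Of the 22 listed hedgehog, PTHrP and BMP genes 17 were measured and limma called 0 in any pair of zones (at most 0.029% of all probe sets), with 0 at an unadjusted p under 0.05 between hypertrophic and reserve arrays (8.1% of all probe sets). By the F test their leading genes were the BMP antagonist Chrd, Ihh, the hedgehog transducer Smo and the ligand Bmp2. Bmp2 averaged 8.80 in hypertrophic arrays against 10.01 to 10.11 in the other zones, and 7.30 against 8.27 to 9.90 on its other probe set.

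Of 24 listed regulators of Col10a1 transcription 18 were measured. Limma called 0 in any pair of zones, where it called at most 0.029% of all probe sets, and 1 had an unadjusted p under 0.05 between hypertrophic and reserve arrays, near the 8.1% of all probe sets. Their median hypertrophic minus reserve difference was 0.27 against 0.06 over all probe sets, and 8 of 18 lay wholly above reserve arrays where 21.3% of all probe sets did. Runx2, Sp7 and Sox9 had no probe set with a single symbol and were not analysed here. Mef2c, a factor that promotes hypertrophy, averaged 13.34 in both hypertrophic and reserve and 12.39 in both proliferative and perichondral arrays. Its relative Mef2d averaged 9.32 in hypertrophic, 7.71 in reserve, 6.61 in perichondral and 5.26 in proliferative arrays, below the other-organ level except for 1 hypertrophic array, and its other probe set did not show that order (6.52, 5.63, 6.38 and 6.69 in the same order of zones). Hdac4, which holds Mef2 and Runx factors back, averaged 10.24 in perichondral, 9.45 in proliferative, 9.33 in hypertrophic and 8.44 in reserve arrays. Runx3 averaged between 6.37 and 7.53, and its second probe set ordered the zones differently. Smad5, a BMP effector, averaged 9.08 in proliferative and 6.09 in perichondral arrays on the probe set used, and 1 of its other 3 probe sets had the same sign (7.77 and 6.87) while the remaining 2 had the opposite one (5.68 and 8.16, 6.71 and 8.39). Msx2 averaged 8.65 in proliferative arrays against 5.34 to 6.29 elsewhere, whereas perichondral arrays were the brightest on both its other probe sets (7.37 and 7.36). Proliferative arrays averaged 7.28 and 6.28 on those probe sets, so they were close behind on the first. All these averages lay below the other-organ level. Zeb1 averaged 7.57 in hypertrophic against 9.99 in reserve arrays.

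The collagens of the earlier chondrocyte stages mostly had hypertrophic minus reserve differences below 0. All 10 listed cartilage collagen genes were measured, and their median hypertrophic minus reserve difference was -1.15 against 0.06 over all probe sets, with 1 of 10 above 0. Limma called 0 of them in any pair of zones (at most 0.029% of all probe sets), with 2 at an unadjusted p under 0.05 between hypertrophic and reserve arrays (8.1% of all probe sets). Col9a1, a chain of the collagen that coats collagen II fibrils, was at 15.97 and 14.39 in reserve and at 12.84 and 10.02 in hypertrophic arrays, without overlap. The difference was -3.75 (95% interval -5.65 to -1.84, adjusted p = 0.286 with limma). Apart from leaving an array out, it passed in 1 of 8 alternative settings, the age block (0.00312). Col2a1 averaged 16.50 ± 0.90 (SD, n = 2) in hypertrophic and 17.49 ± 0.13 in reserve arrays. Col11a2, Col6a1 and Col6a3 averaged 9.10, 9.59 and 8.77 in hypertrophic against 11.37, 10.90 and 10.66 in reserve arrays, although the other, dimmer probe set of Col6a3 differed by 0.19. In perichondral arrays, where Col10a1 was intermediate, the median of the 10 collagens differed from reserve arrays by 0.03, the same as over all probe sets.

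Collagen X shares its C1q-like end domain with collagen VIII and several secreted proteins. Of 18 listed relatives 17 were measured, and limma called 0 in any pair of zones (at most 0.029% of all probe sets), with 2 at an unadjusted p under 0.05 between hypertrophic and reserve arrays (8.1% of all probe sets). Col8a1 averaged between 8.57 and 9.09 in the 4 zones. Col8a2 averaged 12.43 in perichondral, 11.90 in proliferative, 11.51 in reserve and 11.11 in hypertrophic arrays, with the 2 perichondral arrays at 12.58 and 12.29. C1qtnf3, a secreted C1q-family protein of cartilage, was at 6.52 and 8.37 in hypertrophic against 13.69 and 13.19 in perichondral arrays, a difference of -5.99 (adjusted p = 0.205 with limma). Apart from leaving an array out, that difference passed in 2 of 8 alternative settings, the age block (0.0212) and the fit to 2 zones (0.00747). Cbln1, a synaptic C1q-family protein, averaged 8.03 in hypertrophic and 5.48 in reserve arrays, both below the other-organ level, and 6.46 and 6.12 on its other probe set. Emilin2, an elastin-associated glycoprotein, averaged 7.21 and 8.90 in the same zones.

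Most genes that fold, modify or bind collagen had hypertrophic minus reserve differences below 0, opposite in sign to Col10a1. Of 23 listed receptors, processing enzymes and partners 20 were measured. Their median hypertrophic minus reserve difference was -0.87 against 0.06 over all probe sets, with 1 of 20 above 0, and 8 of 20 lay wholly below reserve arrays where 17.7% of all probe sets did. Limma called 0 of the 20 in that comparison (0.0226% of all probe sets), with 3 at an unadjusted p under 0.05 (8.1% of all probe sets). Serpinh1, the collagen chaperone Hsp47, was at 4.52 and 4.76 in hypertrophic arrays and averaged 10.43 ± 2.03 (SD, n = 2) in reserve, 9.74 ± 0.11 in proliferative and 8.76 ± 2.50 in perichondral arrays. Its hypertrophic minus reserve difference was -5.80 (95% interval -8.23 to -3.37, adjusted p = 0.215), and -2.23 on its other, dimmer probe set. P4hb, the disulfide isomerase that is also a subunit of prolyl 4-hydroxylase, differed by -4.09 (adjusted p = 0.216) and Plod2, a lysyl hydroxylase, by -2.04 (adjusted p = 0.407). Apart from leaving an array out, Serpinh1 (adjusted p = 0.026 with limma) and P4hb (0.0119) passed in 1 of 8 alternative settings, the age block. With an array left out the differences ran from -7.21 to -4.36 for Serpinh1 and from -5.33 to -2.89 for P4hb. The Serpinh1 values in hypertrophic arrays lay below the other-organ level. Ddr2, a collagen receptor that binds collagen X, averaged 9.23 in hypertrophic, 8.58 in reserve, 7.72 in perichondral and 6.21 in proliferative arrays, and another of its 3 probe sets gave -3.01 where this one gave 0.65 for hypertrophic minus reserve.

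**Figure D4:**
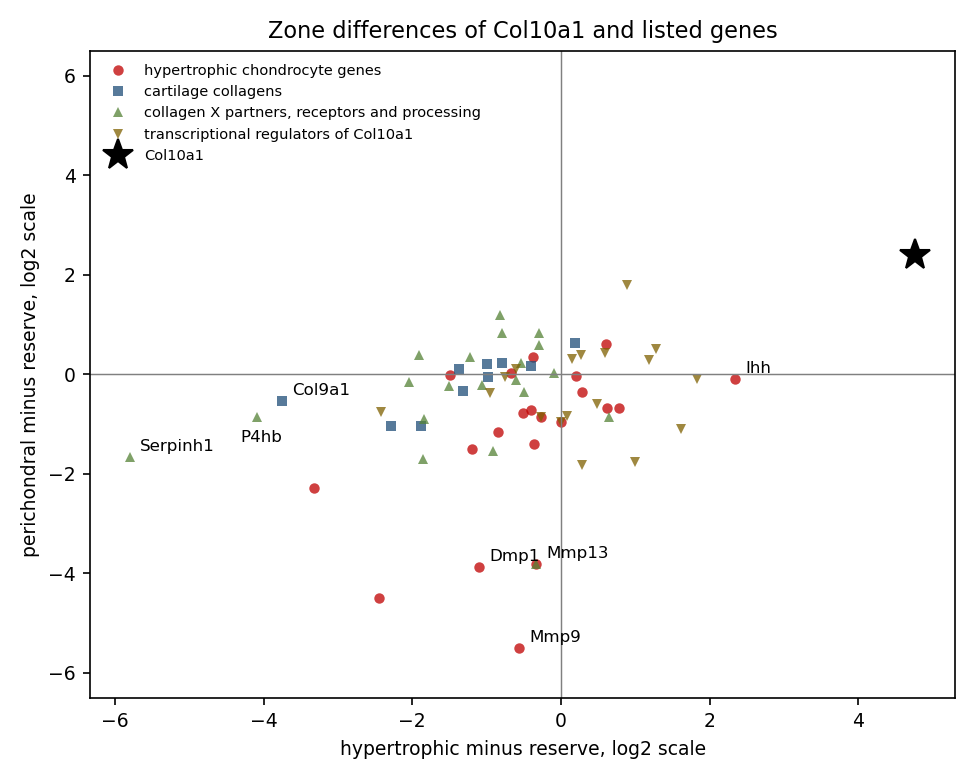
Hypertrophic minus reserve difference (horizontal axis, log2 scale) against perichondral minus reserve difference (vertical axis, log2 scale) for Col10a1 (star) and the measured genes of 4 lists, 1 symbol per gene; a gene in several lists is drawn once for each. Col10a1 lies at 4.77 and 2.39, Mmp13 at -0.33 and -3.81, and Serpinh1 at -5.80 and -1.67; the axes share the reserve arrays.

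The genes whose pattern was most like that of Col10a1 were found by Pearson correlation over the 8 arrays among 7348 genes, each with 1 symbol, a highest zone mean above the normalized median of 8.25 and a range of zone means of at least 1. The first was Fbxw2, a substrate adaptor of ubiquitin ligase complexes (r = 0.945, Spearman rho = 0.905), at 10.45 and 10.19 in hypertrophic and 8.80 and 8.76 in reserve arrays. It was followed by the kinase Cdk13 (r = 0.931), Naa16 (0.927), the kinase Oxsr1 (0.924), Mtcl1 (0.913), Elac1 (0.913), the adhesion molecule Ncam1 (0.901), Grik5 (0.89), Thoc3 (0.888) and Zbtb6 (0.886). Their hypertrophic minus reserve differences ran from 1.03 for Naa16 to 2.84 for Elac1, a description only, since the genes were chosen for their likeness to Col10a1. Elac1 and Grik5 lay below the other-organ level in all 8 arrays, and Thoc3 in all but the 42-day hypertrophic array (9.86). The most opposed were C6h14orf28 (r = -0.97), Uty and Repin1 (-0.955 each), Slc2a3, a glucose transporter, and S100a11, a calcium-binding protein (-0.926 each). The most like genes changed with the measure, since 2 of the 10 were shared with a ranking by Spearman correlation, 2 with one by Euclidean distance and 6 with values as deposited. With an array left out between 2 and 6 were shared. All values are correlations over arrays that share zones, and no p is given.

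Col10a1 lies within the span of Nt5dc1 in the RefSeq table, a neighbour named here outside the rule for naming genes. Nt5dc1 averaged 9.18 ± 1.64 (SD, n = 2) in hypertrophic, 9.64 ± 0.25 in reserve, 9.32 ± 1.57 in proliferative and 8.34 ± 0.84 in perichondral arrays on its brighter probe set. Its hypertrophic minus reserve difference was -0.46 (95% interval -2.37 to 1.45, adjusted p = 0.93 with limma), and the interval does not reach the lower bound of 3.26 for Col10a1.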

How the data were processed

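The deposited values are linear array intensities per probe set, and appear scaled before deposit, since the mean after trimming a share of 0.02 lies between 500.08 and 500.16 in every array. MAS5, GCOS and RMA are listed in the submitters' processing notes, which give neither version nor role. Of 31099 probe sets, 57 controls were left out. Values were analysed as log2(intensity + 16), quantile normalized and fitted with limma 3.58.1 in R 4.3.3 (a mean per zone over all 8 arrays, eBayes with trend, residual df 4, prior df 12.58, Benjamini-Hochberg adjustment over all probe sets, threshold 0.05). The fit was checked on simulated data, with the changed genes drawn from the dimmer probe sets. No changed gene was called at the smaller simulated differences and a minority at the largest, so a missing call of such genes says little. Bright genes such as Col10a1 were not covered by that check. After a first run returned very large simulated differences too small, the differences were made smaller and the changed genes limited to dimmer probe sets. Fold changes on this scale understate differences of dim genes. Precision is limited by 2 arrays a zone.

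Symbols came from the platform annotation, updated through gene identifiers: 20826 probe sets had 1 symbol, 436 several and 9780 none, and a gene is represented by its brightest probe set. Named genes were a set of stage, regulator and collagen genes given in any case, up to 4 leading genes per list by the F test, and the 10 most and 5 least correlated with Col10a1. The gene and the lists were chosen with earlier results of these data known. Ages are shared between zones. Age differences correlated between zones with r from 0.0225 to 0.0806 across all probe sets, dim and unchanging ones included. That does not show whether single genes need an age block. The main fit followed the design text, and age served as a block only in an alternative. A planned fit of Col10a1 minus each other gene was not used, since all its values share the residual of Col10a1 (infinite prior df, and 29173 of 31041 called between hypertrophic and reserve arrays). Other alternatives were the scaling, the pseudocount, a filter on dim probe sets, no variance trend, fits to 2 zones, the Gapdh ratio as a covariate and each array left out.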

Additional observations from a re-analysis of the deposited data

Results flagged for a closer look

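Col10a1 differed in sign with age between zones: it was at 0.12 (46 minus 42 days, log2 scale) in perichondral arrays and at -1.67, -1.69 and -0.89 in hypertrophic, proliferative and reserve arrays. Each zone has 1 array per age, so the difference between zones was not tested, and the perichondral value was -0.23 as deposited and -0.42 with median-centred arrays.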

How the results depend on the processing

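All 6 differences of Col10a1 between zones and its age difference kept their sign in every alternative run for them (the age difference was not run with the age block, the fits to 2 zones or the Gapdh covariate), except that proliferative minus reserve was -0.39 without the 42-day proliferative array and 0 to 2 decimals without the 46-day reserve array. The hypertrophic minus reserve call was lost with values as deposited (4.61), median-centred arrays (4.36), dim probe sets left out (4.77), no variance trend (4.77), the 4 arrays of the 2 zones alone (4.77) and the Gapdh ratio as a covariate (5.53). It was kept with age as a replicate block, which also brought hypertrophic minus proliferative (4.32) past the threshold. With each array left out, Col10a1 ran from 3.90 to 5.63 for hypertrophic minus reserve, from 3.45 to 5.17 for hypertrophic minus proliferative, from 1.52 to 3.18 for hypertrophic minus perichondral, from 1.93 to 2.80 for perichondral minus reserve, from 1.11 to 2.76 for perichondral minus proliferative and from -0.39 to 1.34 for proliferative minus reserve. The age difference ran from -1.41 to -0.80. Where an array was left out, its zone has a lone array that is assumed to vary like the other zones. The cause of these losses was not tested, beyond the fewer arrays or probe sets of some fits.

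Of 154 listed genes measured, limma called 1 for hypertrophic minus perichondral (0.029% of all probe sets) and 2 for hypertrophic minus proliferative (0.0129%). It called 3 for proliferative minus reserve (0.0226%) and 0 for the other 3 pairs (at most 0.0226%). Hypertrophic minus perichondral had 0 as deposited, median-centred, with pseudocount 1, with dim probe sets left out and with no trend, and 2 in the fit to 2 zones. Hypertrophic minus proliferative had 0 median-centred and with no trend, and 1 with pseudocount 1, with dim probe sets left out and in the fit to 2 zones. Proliferative minus reserve had 5 as deposited, 6 with pseudocount 64, 0 with no trend and 7 in the fit to 2 zones, where perichondral minus reserve had 3. With age as a replicate block the counts were 6 (hypertrophic minus perichondral), 4 (hypertrophic minus proliferative), 6 (hypertrophic minus reserve), 4 (perichondral minus proliferative), 3 (perichondral minus reserve) and 11 (proliferative minus reserve). With each array left out they ran from 0 to 2, 0 to 3, 0 to 8, 0 to 0, 0 to 1 and 0 to 12 in the same order. Shares of all probe sets called were not taken in the alternative fits, so changes in these counts are not a result about the listed genes. The Gapdh covariate was run for the zone differences of Col10a1 alone, and the alternatives of the unused fit of Col10a1 minus another gene were not run.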
